A study of Mus musculus with 6 samples.

Results

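The genes described here are the mouse zinc finger protein genes numbered Zfp700 to Zfp999 that were read often enough to be compared. The deposited tables list 121 genes with such a name, of 25330 genes in all, and the 65 whose counts summed to at least 300 over the 6 libraries were taken. They were chosen by name and summed counts, and the rule did not use the difference between the groups. Earlier results of these data were known when the choice was made. The RNA-seq libraries came from AML12 cells, a wild-type mouse hepatocyte line that was derived from mice carrying a transgene for human transforming growth factor alpha. In the control group, 3 libraries, the cells were kept under normoxia with 21% oxygen in a medium with serum, insulin, transferrin, selenium and dexamethasone. In the H/R group, also 3 libraries, the medium was exchanged for one without serum and glucose, and the cells spent 6 h in 1% oxygen and 2 h in normal oxygen afterwards. Oxygen and medium therefore changed together and their effects cannot be told apart. All libraries share 1 cell line, and no label states whether the replicates were separate cultures, so p-values measure the spread between these samples only. In bulk RNA, fewer cells with a transcript and less transcript per cell cannot be told apart.

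C2H2 zinc finger proteins read DNA with repeated fingers, each a short loop in which 2 cysteines and 2 histidines hold a zinc ion. Many also carry a KRAB box, which recruits the scaffold protein TRIM28 and with it the histone methyltransferase SETDB1, so that the bound DNA is packed into silent chromatin. In the mouse, KRAB zinc finger genes lie in tandem clusters that grew by duplication, and many of their known targets are retroviral elements. The messenger RNAs of many zinc finger transcription factors are known to be short-lived. Of the 65 genes, 44 encode a KRAB-like stretch with at least 3 fingers, 13 encode at least 3 fingers without it, and 8 encode fewer than 3 fingers of the standard spacing.

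Total counts ranged from 20438746 to 21854790 per library. Normoxic control replicate 1 stands apart, since 59 genes had at least 10 counts there and at most 2 in each of the other 5 libraries, against 0 to 2 genes for any other library. None of the 65 zinc finger genes was among them, but the minimum of summed counts by which they were chosen largely sets this result. A gene with at most 2 counts in each of the other 5 libraries could pass that minimum only through control replicate 1. No conclusion on how this library affects the 65 genes is drawn from their absence. Of the 10 hepatocyte markers, 4 were higher and 5 lower after H/R, and all 10 were read, with Krt8 at a mean of 1394 RPKM in the control libraries but Alb at only 5.82. Biliary keratins were also abundant, with Krt19 at 495 RPKM in the control libraries, so the hepatocyte label rests on the keratins and liver transcription factors more than on plasma protein genes. The summed level of the biliary list was 534 to 609 RPKM in the control libraries and 1009 to 1061 RPKM in the H/R libraries. The summed levels of the endothelial and of the fibroblast and stellate markers were at most 0.130 RPKM in any library. The macrophage and leukocyte list summed to 0.618 to 0.840 RPKM in the control and 4.40 to 5.01 RPKM in the H/R libraries, nearly all from Cd68, a lysosomal protein, while Ptprc, Adgre1 and Clec4f had at most 3 counts in a library. The part of these markers in the results below was not tested. Of 10 genes known to respond to hypoxia, 9 rose at least 2-fold after H/R and Car9 did not pass.

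The 65 zinc finger genes did not move as a block. By the quasi-likelihood test of edgeR, adjusted by Benjamini-Hochberg over all 14020 tested genes, 18 rose after H/R, 16 fell and 31 did not pass an adjusted p of 0.05. These 34 genes are 52.3% of the 65, whereas 62.8% of all tested genes passed. Of the 9875 other tested genes in the same range of count sums 68.5% passed, and 5923 of these genes had at least 1920 counts, as had 17 of the 65. Among all tested genes, 31.0% were called higher and 31.8% were called lower. The median log2 fold change of the zinc finger genes was -0.05, against -0.01 for all tested genes and -0.01 for the other genes of similar abundance. The direction balance depended on the scaling, and when counts were scaled to library totals alone 15 genes were called higher and 23 lower, while the median of all tested genes itself moved to -0.12. With upper quartile scaling 15 were called higher and 22 lower. DESeq2 called 14 higher and 8 lower, together 33.8% of the 65, against 46.7% of the 25329 genes it tested. Without control replicate 1, the library that stands apart, 16 were called higher and 16 lower, with a median of -0.07. Relative to genes of similar abundance the median was -0.04 with TMM factors and -0.03 with library totals. With similar abundance taken in 4 bins of count sum it was -0.015, and by the range of RPKM it was -0.024.

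No member reached a fold change of 2. The largest increase was 1.99-fold and the largest decrease 1.89-fold, while 8.52% of all tested genes and 6.77% of those of similar abundance passed both an adjusted p of 0.05 and 2-fold. At an unadjusted p of 0.05 edgeR called 35 of the 65 genes, against 65.5% of all tested genes, and DESeq2 placed 1 gene past both thresholds. The 95% interval of 7 genes reached 2-fold, so that a change of this size lay within the error of those genes. The middle 50% of the genes lay between -0.34 and 0.29 on the log2 scale, against -0.33 and 0.30 for the genes of similar abundance, most of which had more counts. The normalized values of the 2 groups did not overlap in 37 of the 65 genes, 20 with H/R above and 17 with H/R below, and this was so for 65.9% of all tested genes and 71.1% of those of similar abundance. With 3 libraries per group, an exact two-sided permutation test of a single gene cannot give a p under 0.1.

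**Figure D1:**
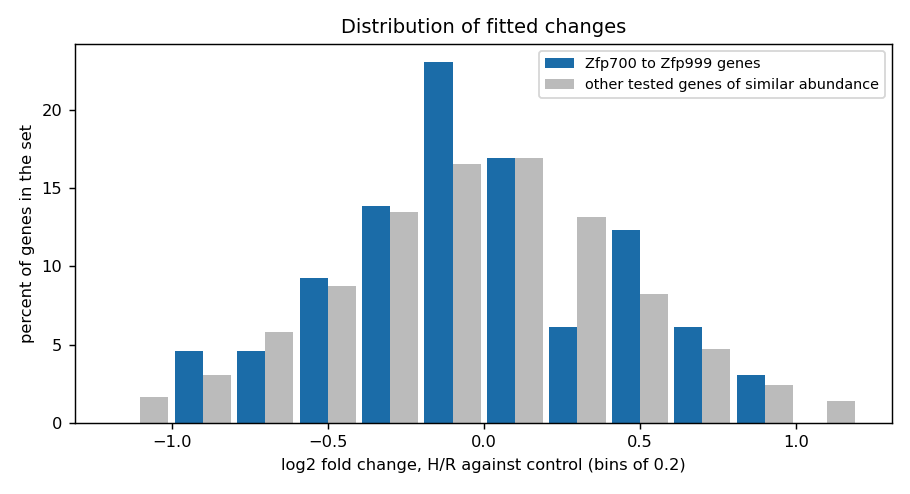
Distribution of fitted log2 fold changes (x axis, bins of 0.2) as a percent of each set (y axis) for the 65 Zfp700 to Zfp999 genes (blue) and the 9875 other tested genes of similar abundance (grey). Both sets centre near 0, and 3.87% of the other genes lie beyond the plotted range while none of the 65 does.

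The direction went with abundance, in the zinc finger genes as in the other genes. The genes were split into 4 bins by count sum. In the lowest bin, from 317 to 468 counts, 2 of 16 members rose and 6 fell, with a median log2 fold change of -0.36 against -0.11 for 654 other genes. Of these 16 genes, Zfp931, Zfp956 and Zfp810, which fell, reached the minimum of 300 only through their control counts and Zfp949, which rose, only through its H/R counts. In the other 12 genes of the bin 1 rose and 3 fell, with a median of -0.28. In the next bin 3 of 16 rose and 3 fell, with medians of -0.06 and -0.10. In the bin from 854 to 1920 counts 5 of 16 rose and 3 fell, with medians of 0.05 and -0.05. In the highest bin 8 of 17 rose and 4 fell, with medians of 0.07 and 0.03. In the other genes the share that passed climbed with the counts behind them. From the lowest to the highest bin it was 47.7%, 54.2%, 63.8% and 75.4%. In the zinc finger genes the shares were 50%, 37.5%, 50% and 70.6% in the same order. Of the other genes 17.0%, 21.0%, 27.3% and 39.9% were called higher, and 30.7%, 33.2%, 36.4% and 35.5% were called lower. The span of the middle 50% of log2 fold changes was 0.42 in the zinc finger genes and 0.79 in the other genes of the lowest bin, 0.35 and 0.71 in the next, 0.45 and 0.65 in the bin after it, and 0.66 and 0.60 in the highest.

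Together the 65 genes held little of each library. They summed to 0.0880%, 0.0910% and 0.0894% of the counts in control replicates 1, 2 and 3, and to 0.0855%, 0.0867% and 0.0885% in the H/R libraries in the same order. On library totals the ranges of the groups overlapped. After TMM scaling the sums were 18206, 18670 and 17950 in the control libraries and 18910, 19115 and 19233 in the H/R libraries. All H/R values were then on top, so the order of the groups in this sum rests on the scaling. Without Zfp706, which had the most counts of the 65, the TMM-scaled sums were 14827, 15408 and 14537 in the control libraries. In the H/R libraries they were 16352, 16513 and 16456.

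Levels between genes are compared per length, as RPKM. Zfp706, which encodes a small protein of 76 residues with a single finger that has been described in the exit of embryonic stem cells from self-renewal, was the most abundant. It had 3568, 3345 and 3625 counts in the control libraries and 2376, 2413 and 2779 in the H/R libraries. Its level was 37.2 ± 1.25 RPKM (SD, n = 3) in control and 27.3 ± 1.45 RPKM (SD, n = 3) in H/R cells, with the 2 groups well apart. The log2 fold change was -0.34 ± 0.044 (SE, edgeR, adjusted p = 2.74e-08).

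Zfp830, whose product takes part in pre-mRNA splicing and is needed in early embryos, came next with 23.5 ± 0.69 RPKM in control and 26.8 ± 1.68 RPKM in H/R cells (SD, n = 3 each). It rose by a log2 fold change of 0.29 (edgeR, adjusted p = 7.36e-05). Zfp740, Zfp970 and Zfp777 followed, at 15.01, 18.7 and 11.5 RPKM in the control libraries. Zfp970 stood above Zfp740 in control cells but below it after H/R, at 9.18 against 20.4 RPKM. All 5 of these abundant genes passed the test, 3 of them upwards.

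Zfp948, a KRAB zinc finger gene of chromosome 17, rose most. It spans 21567046 to 21588697 on chromosome 17 of GRCm38, shares no exon with another gene, and encodes 667 residues with 15 fingers. Its counts were 425, 514 and 404 in the control libraries and 744, 818 and 870 in the H/R libraries, so the groups were far apart. The TMM-normalized count went from 428 ± 64.4 to 851 ± 43.5 (SD, n = 3 each), a log2 fold change of 0.99 ± 0.080 (SE, 95% interval 0.83 to 1.16, edgeR, adjusted p = 2.58e-10). Only 0.115% of the 50-base words of its transcript occur in transcripts of another gene. With 1 library left out the log2 fold change was between 0.91 and 1.12.

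The 250 bases before its start (RefSeq, GRCm38.p6, chr17:21566728-21566977, plus strand) are shown because it is the largest increase, with the letters ACGTG, the core to which the hypoxia-inducible factors bind, in capitals.
Zfp948 promoter: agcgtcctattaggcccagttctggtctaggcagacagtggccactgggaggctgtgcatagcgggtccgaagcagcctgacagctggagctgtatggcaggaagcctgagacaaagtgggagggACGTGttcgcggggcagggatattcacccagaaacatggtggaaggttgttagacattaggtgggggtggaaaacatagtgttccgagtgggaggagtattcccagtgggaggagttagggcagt
ACGTG on either strand was present in 13 of the 59 genes with a promoter in the RefSeq table, or 22.03%, and in 16.6% of all 32851 promoters of the same length. The table includes genes that were not tested here, and in the 9199 tested genes with a promoter in it, 65.6% of those tested, the share was 22.1%. No excess over tested genes is read from these shares. The letters TGACGTCA, the full cyclic AMP response element, were in none of the 59 and in 1.55% of all promoters. Of the 13 genes with ACGTG, 5 had a log2 fold change above 0 and 8 below, and Spearman's rho between its presence and the log2 fold change was 0.04 over the 59 genes. The match of letters is a description and was not tested as a binding site.

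Of the other genes that rose, Zfp747 of chromosome 7 had 285, 230 and 241 counts in the control libraries and 380, 380 and 404 in the H/R libraries. Its normalized count went from 240 ± 25.6 to 408 ± 3.37 (SD, n = 3 each), a log2 fold change of 0.76 ± 0.087 (SE, edgeR, adjusted p = 2.00e-09). Of its 50-base words, 36.9% occur in transcripts of other genes, mostly 9130019O22Rik, so its reads could be split between copies. Zfp719 had 98, 97 and 103 counts in the control and 135, 127 and 167 in the H/R libraries, a log2 fold change of 0.66 (adjusted p = 3.30e-05). Zfp949 had 57, 43 and 47 against 73, 57 and 81 counts. Control replicate 1 of Zfp949 equalled H/R replicate 2 in raw counts, and the groups separated only after scaling, with a log2 fold change of 0.66 ± 0.186 (SE, edgeR, adjusted p = 0.0026).

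Zfp740, which encodes 2 fingers of the standard spacing, rose from 1605, 1499 and 1544 to 1970, 2015 and 2183 counts. This was a log2 fold change of 0.55 with a standard error of 0.046, the smallest error among the large increases. Zfp827, whose human counterpart brings the NuRD remodelling complex to telomeres, went from 245, 227 and 229 to 317, 294 and 330 counts, a log2 fold change of 0.56 (edgeR, adjusted p = 1.07e-06). Zfp768 had 331, 332 and 339 counts in control and 403, 444 and 437 in H/R cells, a log2 fold change of 0.50. Zfp777 had 888, 889 and 879 against 1136, 1135 and 1129, also 0.50. The groups did not overlap in any of these 4 genes, and at most 2.59% of the exon length was shared with another gene.

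Zfp703, a co-repressor of the NET family without fingers of the standard spacing and known as a breast cancer oncogene, and Zfp784 are named after their values were seen. Zfp703 had 280, 243 and 302 counts in control and 462, 445 and 470 in H/R cells, a log2 fold change of 0.88 ± 0.082 (SE, edgeR, adjusted p = 2.01e-11), but 13.5% of its exon length is shared with Gm45371 on the opposite strand. Zfp784 had a log2 fold change of 0.72, with 94.8% of its exon length inside exons of Zfp865 on the opposite strand, and Zfp865 itself had -0.10 (adjusted p = 0.229). Whether reads were counted by strand is not given in the sources used here, so the values of both genes of that pair are uncertain.

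**Figure D2:**
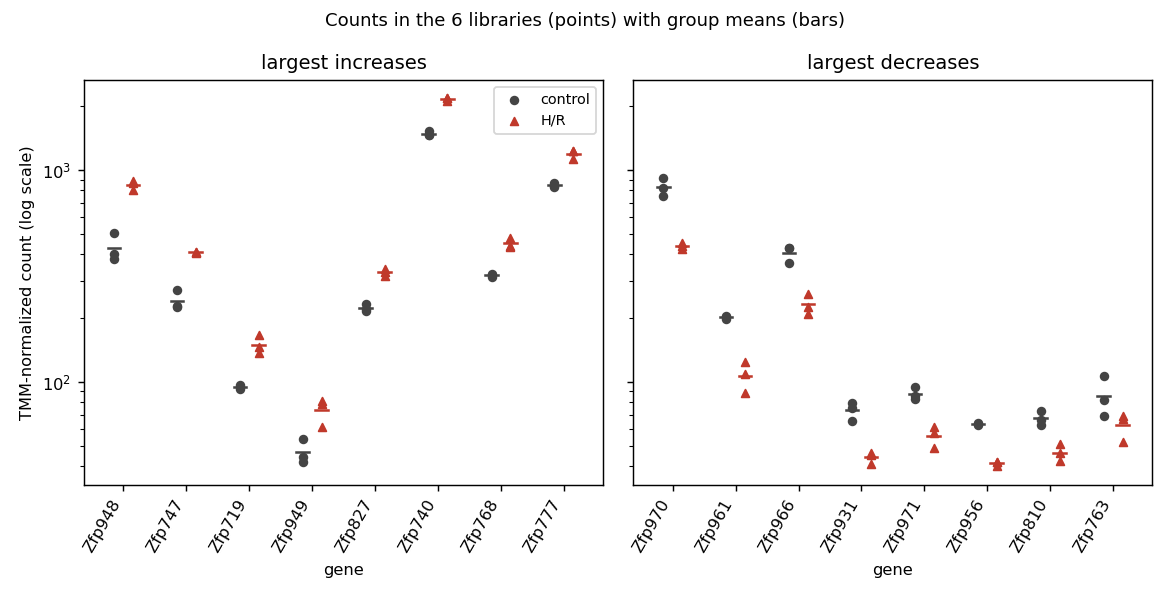
TMM-normalized counts (y axis, log scale) in the 3 control (grey circles) and 3 H/R libraries (red triangles) for the 8 genes with the largest increase and the 8 with the largest decrease among genes with an adjusted p under 0.05, no overlap and under 10% of shared exon length. Short bars are group means; in every gene shown the red triangles lie on one side of the grey circles.

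Of the 8 largest decreases 7 were in KRAB zinc finger genes, which are 44 of all 65, and 4 lay near the end of chromosome 2. Zfp931, Zfp956 and Zfp810 of these 8 reached the count minimum only through their control counts. Zfp970 (chromosome 2, 177464733 to 177478129) had 865, 937 and 801 counts in the control and 395, 417 and 438 in the H/R libraries. The normalized count fell from 829 ± 80.4 to 438 ± 12.2 (SD, n = 3 each), a log2 fold change of -0.92 ± 0.068 (SE, 95% interval -1.06 to -0.78, edgeR, adjusted p = 7.04e-14). Zfp966 (chromosome 2, 175918881 to 175931100) had 450, 439 and 387 against 195, 210 and 260 counts, a log2 fold change of -0.80 (adjusted p = 2.15e-09). Zfp931 had 69, 81 and 80 counts in control and 38, 42 and 46 in H/R cells, a log2 fold change of -0.73. Zfp971 had 88, 88 and 100 against 45, 53 and 61 counts, a log2 fold change of -0.66. In each of the 4 genes the highest H/R library lay below the lowest control library.

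These 4 genes are close copies, as the coding bases of the first finger that is followed by the common linker show in each of them beside that of Zfp948. Capitals mark the codons of the 2 cysteines and 2 histidines that hold the zinc ion (GENCODE M21 transcripts, GRCm38, 63 bases each).
Zfp970: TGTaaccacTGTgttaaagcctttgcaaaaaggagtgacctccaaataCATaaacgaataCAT
Zfp966: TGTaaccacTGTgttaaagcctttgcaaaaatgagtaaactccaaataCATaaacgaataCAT
Zfp971: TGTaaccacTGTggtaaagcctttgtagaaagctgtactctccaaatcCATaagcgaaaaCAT
Zfp931: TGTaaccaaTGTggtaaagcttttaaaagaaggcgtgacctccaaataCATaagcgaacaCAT
Zfp948: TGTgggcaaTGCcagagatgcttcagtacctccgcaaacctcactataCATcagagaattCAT
Between Zfp970 and Zfp966 3 of the 63 bases differ. The other pairs among the chromosome 2 genes differ at 9 to 13 bases, while Zfp948 differs from them at 30 to 33.

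The likeness matters for the counts. Of the 50-base words of the transcripts, 89.5% of Zfp966, 52.2% of Zfp970, 49.4% of Zfp931 and 40.0% of Zfp971 occur in transcripts of other genes, and how reads with several equal matches were counted is not given in the sources used here. Reads split within the region would stay in a sum over its copies. The sum given here leaves out copies without such fingers, such as Zfp968, which holds 66.2% of the words of Zfp966. The 5 members of this region together with the 27 other tested genes there that encode at least 3 fingers had summed normalized counts of 4959, 5088 and 4736 in the control libraries and 3120, 3090 and 3219 after H/R. The sum was 4928 ± 178 in control and 3143 ± 67.4 in H/R cells (SD, n = 3 each), a log2 ratio of -0.65, and the groups did not overlap. Of the 27 genes, 20 fell and 0 rose at an adjusted p under 0.05 (edgeR), with log2 fold changes between -1.53 and 0.37 and a median of -0.62. The region was picked after its values had been seen, and its copies share reads, so the count is a description. Of 18 other tested genes there, 10 fell and 1 rose, with a median of -0.57, so the decrease was not particular to the genes with fingers. Of all tested genes 31.8% were called lower and 31.0% higher.

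**Figure D3:**
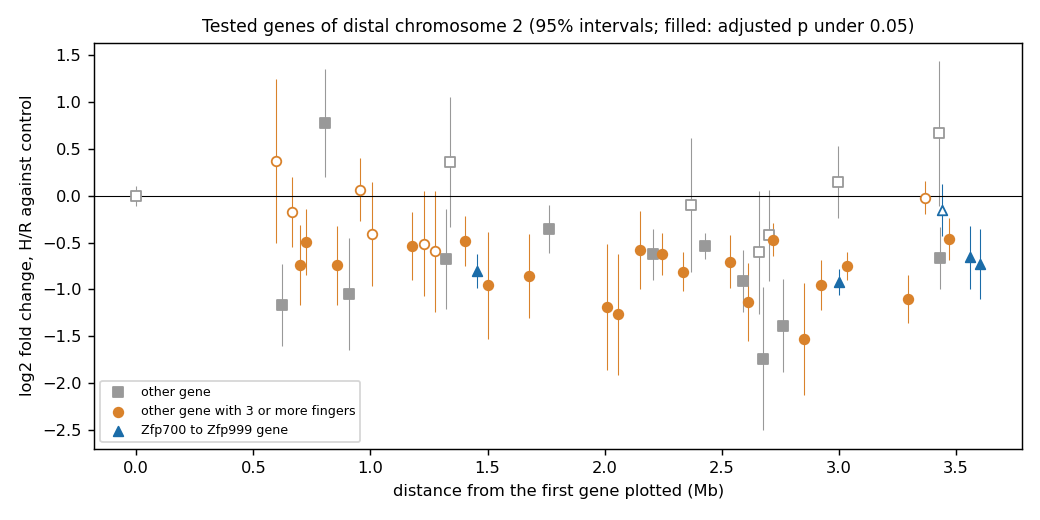
Log2 fold change after H/R (y axis, with 95% intervals) of the tested genes of distal chromosome 2 by distance from the first gene plotted (x axis, Mb). The 5 Zfp700 to Zfp999 genes are blue triangles, other genes with at least 3 fingers orange circles and the remaining genes grey squares, filled where the adjusted p was under 0.05; all 24 filled triangles and circles lie below 0.

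Zfp972, the fifth member of the region, had 114, 123 and 112 counts in control and 100, 82 and 104 in H/R cells, and its log2 fold change of -0.15 did not pass (95% interval -0.43 to 0.13). Away from chromosome 2, Zfp961 of chromosome 8 (71951038 to 71993792) fell most. It had 208, 207 and 218 counts in control and 101, 82 and 124 in H/R cells, a log2 fold change of -0.91 ± 0.121 (SE, edgeR, adjusted p = 5.22e-08), and none of its 50-base words occurs in another gene. Its exons share 4.18% of their length with Cyp4f18. The control libraries of Zfp961 lay close together and the H/R libraries spread more widely below them.

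Zfp956 had 66, 65 and 68 counts in control and 39, 37 and 42 in H/R cells, a log2 fold change of -0.61. Zfp810 had 66, 68 and 77 against 47, 39 and 46, a log2 fold change of -0.54 (edgeR, adjusted p = 0.0117). Zfp763 had 87, 71 and 113 against 48, 64 and 67, a log2 fold change of -0.46 (adjusted p = 0.023). The groups of Zfp763 nearly met, and without control replicate 3 its adjusted p was 0.222 and that of Zfp810 was 0.0515. Without H/R replicate 1 the adjusted p of Zfp763 was 0.126. Zfp932, known to silence retroviral elements of the ERVK class and named after its values were seen, also fell, from 267, 270 and 275 to 192, 159 and 205 counts, a log2 fold change of -0.41. Of its 50-base words 55.5% occur in other genes, mostly Gm15446, so its reads could be split as well. Zfp809, known to silence murine leukaemia virus sequences and likewise named afterwards, had 323, 313 and 299 counts in control and 300, 320 and 325 in H/R cells. Its log2 fold change of 0.15 did not pass (95% interval -0.02 to 0.32).

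Neighbouring genes did not always move together. With neighbours at most 500 kb from each other, 29 of the 65 genes fell into 7 runs of at least 3. On chromosome 17, between 21567046 and 22456689, Zfp948 rose while the 6 genes after it had log2 fold changes from -0.47 (Zfp943, adjusted p = 0.0247) to -0.10 (Zfp994), and only Zfp943 of these passed. On chromosome 7, between 127244274 and 127406822, Zfp768, Zfp747 and Zfp764 rose and Zfp771 fell, with log2 fold changes of 0.50, 0.76, 0.29 and -0.29. On chromosome 6 Zfp956 fell, Zfp777 rose, and the next gene, Zfp746, had -0.01. On chromosome 8, of 5 genes between 69209038 and 69791178, Zfp963 rose (adjusted p = 0.0484) and Zfp866 fell (adjusted p = 0.0354). Both share sequence with Gm20422, Zfp963 over 40.8% of its exon length, so these calls are uncertain. No member passed in the run of 3 on chromosome 13.

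By protein type, 10 of the 44 genes with a KRAB-like stretch and fingers rose and 13 fell, with a median log2 fold change of -0.15. Of the 13 genes with fingers but no KRAB-like stretch 5 rose and 2 fell, with a median of 0.14. Of the 8 genes with fewer than 3 fingers 3 rose and 1 fell, with a median of 0.09. In this order 52.3%, 53.8% and 50% of the types passed. Of all tested genes 62.8% passed, with 31.0% called higher and 31.8% lower. Of the KRAB genes that fell, Zfp931 and Zfp810 reached the count minimum only through their control counts. Zfp949, which rose, did so only through its H/R counts. The types differed in other ways as well. The KRAB type had a median GC content of 40.3% and a median count sum of 653.5, against 50.03% and 1289 for the type with fingers alone, and 14 of its 44 genes shared more than 10% of their 50-base words with other genes. Without such copies 7 of 30 KRAB genes rose and 6 fell, with a median of -0.08. The median stayed below 0 in the KRAB genes and above 0 in the other 21 genes under TMM, upper quartile and library total scaling and with DESeq2. It was -0.25 and 0.02 with library totals. Among these 21 genes is Zfp935, which encodes a KRAB-like stretch but no fingers of the standard spacing. The difference between the types itself was not tested.

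GC content varied with the change among the 65 genes. Across these genes, which share libraries and in part sequence, Pearson's r between the GC content of the longest transcript and the log2 fold change was 0.42 and Spearman's rho 0.48. Of the 32 genes with the lowest GC content 3 rose and 10 fell, and of the other 33 genes 15 rose and 6 fell. In genes of similar abundance 37.4% rose and 29.5% fell below the same GC value of 42.0%, with a median of 0.04, and 32.8% rose and 36.0% fell above it, with a median of -0.02. With an offset for GC content and gene length in the fit, 18 members were still called higher and 16 lower, and rho was 0.44.

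**Figure D4:**
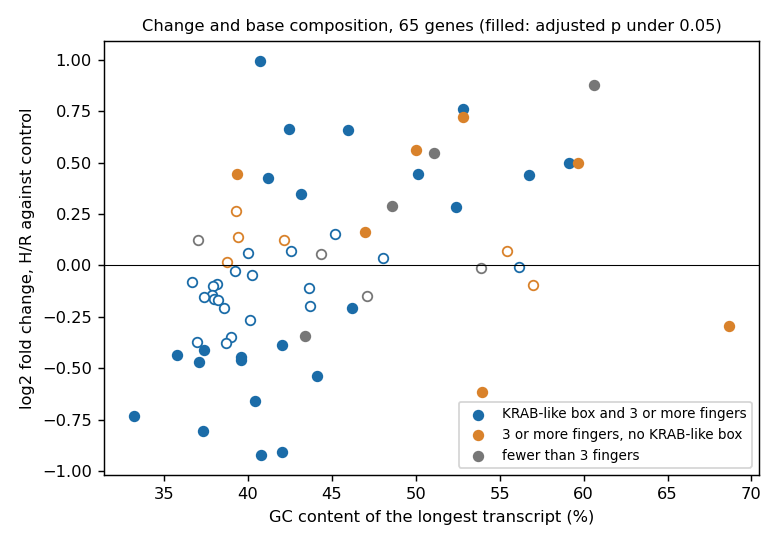
Log2 fold change after H/R (y axis) against the GC content of the longest transcript in percent (x axis) for the 65 genes, coloured by protein type and filled where the adjusted p was under 0.05. Most filled points on the left, below 42.0%, lie under 0 and most on the right lie above it, with Zfp948 as the highest point on the left.

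The transcripts resembled other genes in length but not in base composition. The median exonic length was 3658 bases against 3889 for genes of similar abundance, and the median gene span was 17052 against 20916 bases. The median GC content was 42.0% against 49.7%. The pentamer ATTTA, known from short-lived messages, occurred at a median of 1.61 per kb of 3' UTR in the 60 members with an annotated 3' UTR and 1.26 per kb in the genes of similar abundance. Its density had a Spearman rho of 0.06 with the log2 fold change over these 60 genes, and for exonic length rho was 0.06 over all 65.

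For the 31 genes that did not pass, the intervals set the limit. In 24 of them the 95% interval lay within 0.5 of 0 on the log2 scale. The narrowest were those of Zfp710, Zfp865 and Zfp746, although Zfp865 was called lower with library totals (adjusted p = 0.0145), with upper quartile scaling (adjusted p = 0.0345) and by limma on log2(RPKM + 1) (adjusted p = 0.0496). Zfp746, or PARIS, a repressor of the mitochondrial regulator Ppargc1a that Parkin marks for degradation, had 525, 488 and 492 counts in control and 414, 423 and 524 in H/R cells, with a log2 fold change of -0.01 (95% interval -0.16 to 0.14). Zfp710 had 572, 665 and 654 against 560, 619 and 627 counts, with an interval of -0.07 to 0.21. In both genes the groups overlapped. The standard error over the 65 genes ran from 0.044 to 0.213 with a median of 0.121.

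**Figure D5:**
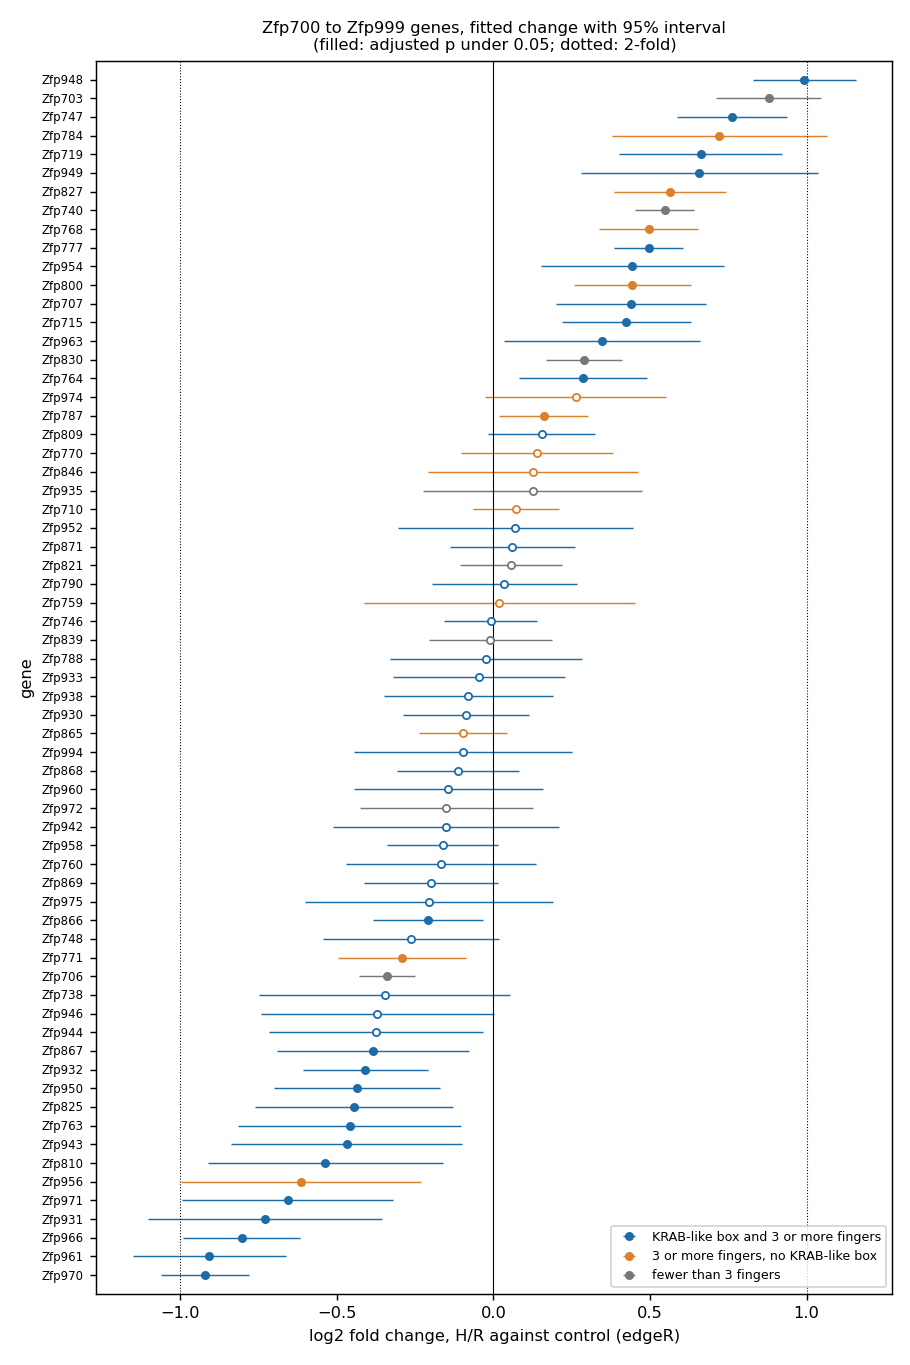
Fitted log2 fold change after H/R with its 95% interval (x axis) for each of the 65 genes (y axis), ordered by change, coloured by protein type and filled where the adjusted p was under 0.05. The values run from -0.92 (Zfp970) to 0.99 (Zfp948), and no point passes the dotted 2-fold lines.

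The count sum of 300 left 56 of the 121 genes out. Just inside it were Zfp759 and Zfp956 with 317 counts and Zfp975 with 343, and just outside were Zfp976 with 262, Zfp772 with 257 and Zfp940 with 256. If only the control libraries had been counted and doubled, 1 of the 65 genes (Zfp949) would have been under 300, and with the H/R libraries alone 3 (Zfp931, Zfp956 and Zfp810) would have been. All 4 are among the largest changes described here.

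Several cofactors of KRAB proteins were lower after H/R. Of a list of 30 co-repressors and readers, 18 fell and 4 rose at an adjusted p under 0.05, with log2 fold changes from -1.26 to 0.82 and a median of -0.32, where 31.8% of all tested genes fell and 31.0% rose. The list is wider than cofactors alone. It holds DNA methyltransferase genes such as Dnmt1, and Zfp57, itself a numbered zinc finger gene, which rose with a log2 fold change of 0.28. Trim28, the scaffold, had 4303, 4012 and 4394 counts in control and 2724, 2930 and 2950 in H/R cells, a log2 fold change of -0.42 ± 0.044 (SE, edgeR, adjusted p = 2.08e-10). Setdb1, the methyltransferase, had 908, 936 and 1052 against 648, 576 and 696 counts, a log2 fold change of -0.46 (adjusted p = 9.86e-08). Both genes were lower in all 3 H/R libraries. The largest decrease was that of Uhrf1, which guides maintenance methylation of DNA during replication, at -1.26. The largest increase was that of 2810474O19Rik, at 0.82.

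Other zinc finger families, taken by name with the same count minimum, are given for comparison from the same fit. Of 160 other numbered Zfp genes 76 rose and 33 fell, or 47.5% and 20.6%, with a median log2 fold change of 0.17. Of all tested genes 31.0% were called higher and 31.8% lower. Of 37 Zbtb genes 21 rose and 8 fell, with a median of 0.29, and of 15 Zscan and Zkscan genes 7 rose and 2 fell, with a median of 0.15. The difference between these families and the 65 genes was not tested, and beyond the shared minimum their counts were not matched.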

How the data were processed

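The 6 mRNA libraries were 3 control and 3 H/R, with groups and replicate numbers from the sample titles. Per the labels, the authors trimmed reads with Trimmomatic 0.36 and counted them with featureCounts of Subread 1.5.1, and the study's methods give GRCm38 as the genome. The annotation and strand setting are not given in the sources used here. The deposited counts are whole reads per gene. The RPKM values deposited by the authors follow from count, length and library total (largest relative error 1.13e-06), and were used for levels and in 2 alternatives.

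For the tests edgeR 4.0.16 was run in R 4.3.3 (filterByExpr, TMM, robust quasi-likelihood fit, Benjamini-Hochberg adjustment over 14020 genes) and checked on simulated data. Intervals are 95% intervals of the fitted log2 fold change. "Normalized count" means the count per effective library size times the mean effective size. Total counts of 20438746 to 21854790 set the precision, with a common biological coefficient of variation of 0.0502. Standard errors came from the F statistic.

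Fingers (C, 2 or 4 residues, C, 12 residues, H, 3 to 5 residues, H) and KRAB-like stretches (EW, any 2, L, any 3, Q, any 2, L, then Y or F) were searched in the longest coding sequence of GENCODE M21 (GRCm38). All 65 genes matched by symbol and position. Promoters of 59 genes came from RefSeq. The other numbered Zfp genes cover Zfp1 to Zfp699. Marker and cofactor lists were set by gene name. Finger types were planned on RefSeq proteins, but the GENCODE coding sequences were used.

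Genes named are the 8 largest increases and the 8 largest decreases among members with adjusted p under 0.05, no overlap between groups and under 10% of shared exon length, any member past 2-fold, the 5 most abundant by RPKM, 3 on each side of the count minimum, the 3 with the smallest standard error among those that did not pass, and Trim28, Setdb1 and the extremes of the cofactor list. Exceptions are marked. The members and lists were chosen with earlier results of these data known.

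Alternatives were DESeq2 1.42.0, upper quartile scaling, library totals, no filter, a filter of 10 counts or more in each library, the replicate block, an offset on GC content and length (without and with the block), limma 3.58.1 on log2(RPKM + 1) and log2(RPKM + 0.1), leaving out each library, count minimums of 100 and 600, members without shared exons, 2 other definitions of similar abundance and, added after seeing the data, members with at most 10% of 50-base words in another gene.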

Additional observations from a re-analysis of the deposited data

How the results depend on the processing

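Counts of calls. The number of members called lower was 16 and became 8 with DESeq2 (14 higher), 8 with a count minimum of 600 (40 genes) and 9 among the 47 genes with at most 10% of their 50-base words in another gene. DESeq2 called 46.7% of the 25329 genes it tested, against 33.8% of the members. The number called higher was 18 and became 11 among the 52 genes without shared exons. Past 2-fold, where 0 were called, 1 gene (Zfp948) was called higher with DESeq2, with the GC and length offset and with that offset and the replicate block. Past 2-fold lower were 2 genes with library totals, 1 on log2(RPKM + 0.1) and 3 with a count minimum of 100 (88 genes). With 1 library left out, 14 to 17 members were called higher and 13 to 16 lower, and 0 to 1 passed 2-fold in either direction. The alternatives on the count minimum, on shared exons and on 50-base words count another number of genes by construction. For the others the cause was not tested.

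Medians. The median log2 fold change of the members was -0.05. Scaled to library totals it was -0.15, and it was -0.14 on log2(RPKM + 0.1) and -0.12 with upper quartile scaling, as the median of all tested genes moved to -0.12, -0.11 and -0.08. It was 0.046 with a count minimum of 600 and 0.019 without the close copies, and between -0.08 and -0.01 with 1 library left out. Relative to genes of similar abundance it was -0.04, with 0.057 at a count minimum of 600, 0.030 without the close copies, and -0.07 to 0.0075 with 1 library left out. With the 2 other definitions of similar abundance it was -0.015 (4 bins of count sum) and -0.024 (range of RPKM).

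Replicate numbers did not pair the libraries, with correlations of same-numbered deviations of -0.03, 0.00 and -0.01. With the replicate block 16 members were called higher and 16 lower, and the median was -0.045. Zfp746 changed sign with DESeq2 (0.0043), Zfp710 with library totals (-0.033), log2(RPKM + 1) (-0.025) and log2(RPKM + 0.1) (-0.030), and Zfp759 with library totals (-0.085), upper quartile scaling (-0.051), log2(RPKM + 1) (-0.043) and log2(RPKM + 0.1) (-0.11). With 1 library left out Zfp746 ranged from -0.083 to 0.035 and Zfp759 from -0.22 to 0.23. None of these 3 genes passed the test. Of the other values of named genes, 216 kept their direction and side of the threshold, 3 became weaker (Zfp763, Zfp810 and Zfp956 with DESeq2) and 3 stronger (Zfp865 with library totals, upper quartile scaling and log2(RPKM + 1)). With 1 library left out 130 did so and 3 became weaker, named in the report.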

Other observations

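The 56 zinc finger genes of the same name range with fewer than 300 counts were not part of the comparison. Of these, 31 could be tested with edgeR. At an adjusted p under 0.05, 1 rose and 8 fell, where 31.0% of all tested genes rose and 31.8% fell. The gene that rose was Zfp951, with 45, 24 and 20 counts in control and 48, 50 and 64 in H/R cells. Of those that fell, 3 did so at least 2-fold. Zfp967 had 32, 30 and 31 counts in control and 8, 8 and 19 in H/R cells, Zfp968 had 27, 31 and 36 against 10, 15 and 16, and Zfp808 had 26, 58 and 31 against 14, 11 and 25. Zfp967 and Zfp968 lie on distal chromosome 2, among the copies described in the report. The genes named here were chosen after their values were seen, and their low counts leave standard errors near 0.3 on the log2 scale.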
